A study of Homo sapiens with 24 samples.

Results

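The response of 2 human B-cell lymphoma lines to TAK981 was compared: the change from 0 h to 8 h in OCI-LY19 minus the change from 0 h to 8 h in OCI-LY3, on the log2 scale, for every expressed gene. The contrast rests on 8 RNA sequencing libraries, 2 per line and time, out of 16 RNA libraries and 24 samples in the series. Both lines are established cultures from diffuse large B-cell lymphoma. The 4 groups are OCI-LY19 at 0 h, OCI-LY19 at 8 h, OCI-LY3 at 0 h and OCI-LY3 at 8 h. The labels name TAK981 at both times, the design text gives 0 h as the comparator, and no dose is stated for TAK981. Each line stands for 1 culture model, and nothing in the labels says that the 2 replicates of a group came from separate cultures, so that p-values measure the spread between these libraries, which may be technical.

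TAK981, also known as TAK-981 or subasumstat, inhibits the SUMO-activating enzyme, a heterodimer of SAE1 and UBA2. That enzyme starts a cascade that attaches small ubiquitin-like modifier (SUMO) proteins to other proteins, many of them transcription factors and chromatin proteins, and SENP proteases remove them. Blocking it lowers SUMO conjugation throughout the cell, so that genes under very different factors can change at once. A difference of differences asks which of these changes depend on the line: a value of 0 means that both lines changed by the same factor, a positive value that OCI-LY19 changed more in the upward direction or less in the downward one, and a negative value the reverse.

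The 8 libraries held between 16770677 and 24694466 gene counts. The median biological coefficient of variation was 8.54% in the fit of all 16 libraries, which share 1 estimate of the spread. Spike-in RNAs made up 0.475% to 0.613% of all counts in OCI-LY19 and 0.0575% to 0.0823% in OCI-LY3, so that line, spike-in share and any batch cannot be told apart. The B-cell markers MS4A1, CD79A, CD79B, PAX5 and CD22 were present in both lines. OCI-LY3 is generally classed with the activated-B-cell type, yet in the libraries labelled OCI-LY3 the mean of IRF4, a defining factor of that type, was 6.02 CPM (gene counts scaled to a common library total, TMM-normalised) at 0 h, CCND2 was at 0.0281 CPM, and the germinal-centre genes MME and BCL6 were at 111 and 199 CPM. In the libraries labelled OCI-LY19 the corresponding means were 4.94, 0.123, 102 and 103 CPM. Other markers went the other way in OCI-LY3 at 0 h, with the activated-type genes PIM1 and BATF at 240 and 25.7 CPM and the germinal-centre gene LMO2 at 0.112 CPM. In OCI-LY19 at 0 h PIM1, BATF and LMO2 were at 314, 25.6 and 0.0493 CPM. PIM1 was thus higher in OCI-LY19, BATF was near the same level and LMO2 was low in both lines. The whole activated-type list summed to 889 to 900 CPM there and to 737 to 754 CPM in OCI-LY19 at 0 h, and the germinal-centre-type list to 1173 to 1212 CPM and 607 to 660 CPM. The label was kept, since the contrast is defined by it. T and NK cell markers summed to 5.70 to 17.3 CPM with CD3D and CD8A at 0, and monocyte and macrophage markers to 3.66 to 13.8 CPM with FCGR3A at 0.

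Of 17327 genes tested, 2676 (15.4%) differed in response at an adjusted p of 0.05 (edgeR quasi-likelihood test, Benjamini-Hochberg adjustment over all tested genes). A positive difference was called for 1682 genes, 9.71% of those tested, and a negative one for 994, 5.74%. The difference was at least 1 on the log2 scale for 447 of them, 237 positive and 210 negative. The median over all tested genes was 0.01. That split rests on the scaling: with total gene counts in place of TMM factors, 710 genes were positive and 2454 negative and the median over all genes was -0.16, and with spike-in totals 150 were positive and 733 negative and the median was -0.21. Differences are therefore read below against those shifts. Counts of called members in every gene list are likewise to be read against 9.71% positive and 5.74% negative among all tested genes.

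The changes in the 2 lines had a Pearson r of 0.379 across all tested genes and 0.749 across the 9303 that averaged 5 CPM or more, a description across genes, which are not independent replicates. The SD of the change over the 9303 genes was 0.60 in OCI-LY19 and 0.53 in OCI-LY3 on the log2 scale. Of the 2676 genes, 957 were called higher at 8 h in OCI-LY19 with no call in OCI-LY3, and 457 were called lower in OCI-LY19 with no call in OCI-LY3. Another 291 rose in both lines and more so in OCI-LY19, and 166 fell in both and more so in OCI-LY19. The reverse patterns were smaller: 196 rose in OCI-LY3 with no call in OCI-LY19, 206 fell in OCI-LY3 with no call in OCI-LY19, 55 rose in both and more in OCI-LY3, and 58 fell in both and more in OCI-LY3. In 121 genes OCI-LY19 rose and OCI-LY3 fell, and in 74 OCI-LY19 fell and OCI-LY3 rose. For the remaining 95 the change was not called in either line alone.

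The lines already differed before treatment. At 0 h, 6820 genes (39.4%) were called different between OCI-LY19 and OCI-LY3, and at 8 h 6117 (35.3%). The median absolute difference between the lines was 0.41 on the log2 scale at 0 h and 0.36 at 8 h. The mean levels of the 2 lines (log2 CPM) had an r of 0.984 across genes at 0 h and 0.986 at 8 h, and 1 gene at 0 h and 0 at 8 h had 10 CPM or more in one line and under 0.1 CPM in the other. These comparisons use the same libraries as the response difference, so the levels are given beside it and not as separate support. Whether the 2 labels stand for unrelated lines was not tested, and a line here means the libraries under its label.

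**Figure D1:**
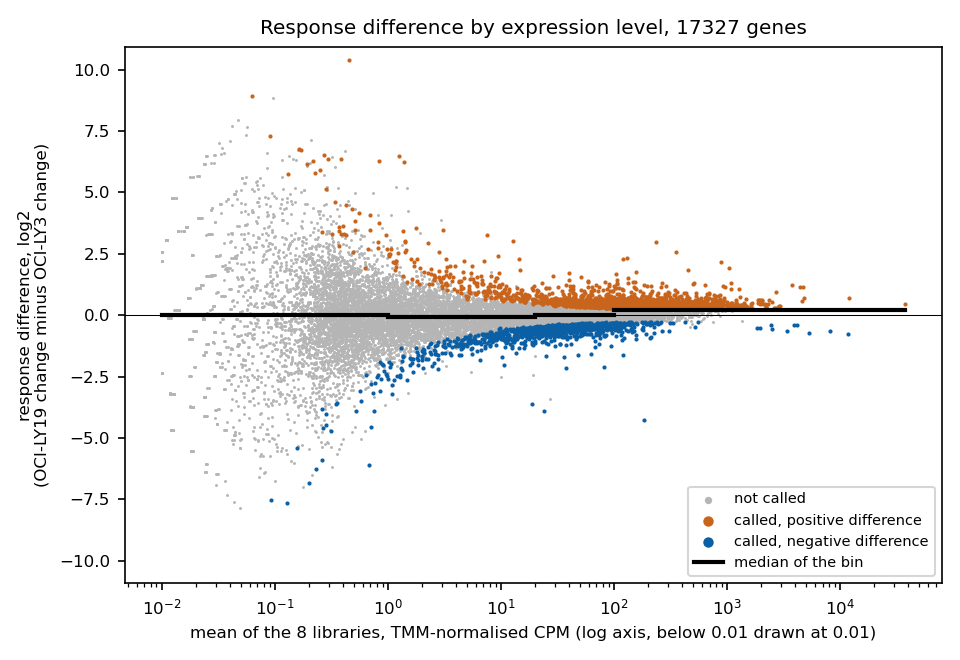
Response difference (log2, OCI-LY19 change minus OCI-LY3 change) of the 17327 tested genes against their mean TMM-normalised CPM over the 8 libraries (log axis), with called genes in colour and the median of each expression bin as a black line. Among the 2308 genes at 100 CPM or more the median is 0.20 and 886 are called positive against 115 negative, whereas from 5 to 20 CPM the median is -0.08 with 135 positive and 244 negative.

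The sign of the difference went with expression level. For the 2308 genes at a mean of 100 CPM or more the median difference was 0.20, with 886 positive and 115 negative calls. The 2391 genes between 5 and 20 CPM had a median of -0.08, with 135 positive and 244 negative calls. The 4604 genes between 20 and 100 CPM had a median of 0.00, with 544 and 504. When a smooth trend with expression level was subtracted, an alternative chosen after seeing the data, 2101 genes were called, 1134 positive and 967 negative. That alternative is given beside the lists whose counts it moved. Lists of highly expressed genes are also to be read against the calls at their own expression level.

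Cholesterol synthesis separated the lines most clearly by direction. The pathway builds sterols from acetyl-CoA through mevalonate and is switched on by SREBP factors when membrane sterol is low, and INSIG1 is the protein that holds the SREBP complex in the endoplasmic reticulum when sterol is plentiful. Of 34 genes of cholesterol and fatty acid synthesis 33 passed the filter on low counts, and of these 27 had a positive response difference and 0 a negative one, against 9.71% and 5.74% of all tested genes. The median was 0.88, and it stayed positive at 0.68 without TMM, 0.61 with spike-in totals and 0.70 with the expression trend removed. With spike-in totals 14 were called positive. In 14 of the 27 the lines moved in opposite directions, up in OCI-LY19 and down in OCI-LY3. The median level of the list in OCI-LY19 relative to OCI-LY3 was -1.55 at 0 h and -0.84 at 8 h on the log2 scale, so the lines were closer after treatment.

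HMGCS1, the synthase that makes the precursor of mevalonate, had 800 and 896 CPM in the OCI-LY3 libraries at 0 h and 715 and 679 CPM at 8 h. In OCI-LY19 it had 63.9 and 63.5 CPM at 0 h and 182 and 197 CPM at 8 h. All OCI-LY19 libraries were below all OCI-LY3 libraries at both times, and the distance between the lines narrowed. The difference was 1.85 ± 0.12 (SE, n = 2 per group, edgeR adjusted p = 1.9e-13). MVD, which makes isopentenyl pyrophosphate, had 218 and 234 CPM at 0 h and 124 and 121 CPM at 8 h in OCI-LY3, and 34.0 and 29.7 CPM at 0 h and 46.9 and 47.0 CPM at 8 h in OCI-LY19. Here too the lines moved toward each other, with a difference of 1.44 ± 0.10.

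Other members rose in both lines. INSIG1 had 341 and 396 CPM at 0 h and 1424 and 1429 CPM at 8 h in OCI-LY3, and 88.5 and 99.2 CPM at 0 h and 1610 and 1615 CPM at 8 h in OCI-LY19. The lines did not overlap at 0 h and were near the same level at 8 h, with a difference of 2.15 ± 0.12. FDFT1, the squalene synthase, differed by 1.30 ± 0.10, from means of 600 and 874 CPM in OCI-LY3 and 120 and 429 CPM in OCI-LY19. The sterol regulatory element, searched on both strands as TCACNCCAC in the 250 bases before the gene start, was found in 1 of 27 list promoters (3.7%) and in 0.875% of the 27305 promoters in the RefSeq table (GRCh38.p14).

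NF-kB target genes also had positive differences in most members, 17 of them as a rise in both lines that was larger in OCI-LY19. NF-kB is a family of dimers of REL proteins that inhibitors such as NFKBIA keep in the cytoplasm until a signal releases them, and NFKBIA and TNFAIP3 are themselves induced and close the loop. In B cells the pathway drives survival, adhesion and cytokine genes. Of 37 target genes 36 were tested, and SOD2 was not found under its symbol. Of those 36, 22 had a positive difference and 0 a negative one, with a median of 0.79. The median was 0.59 without TMM, 0.53 with spike-in totals and 0.76 with the trend removed, and 0.70 to 0.84 when each library in turn was left out. With spike-in totals 11 were positive and 0 negative, and without TMM 21 were positive and 4 negative. Relative to OCI-LY3 the list median in OCI-LY19 was -0.22 at 0 h and 0.51 at 8 h.

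LTA, a cytokine of the tumour necrosis factor family, had 84.7 and 83.5 CPM at 0 h and 115 and 114 CPM at 8 h in OCI-LY3. In OCI-LY19 it had 39.6 and 33.9 CPM at 0 h and 246 and 243 CPM at 8 h, so that the order of the lines turned over, with a difference of 2.29 ± 0.13 (adjusted p = 9.54e-15). ICAM1, an adhesion molecule for leukocyte integrins, was at 203 and 193 CPM in OCI-LY3 and 201 and 185 CPM in OCI-LY19 at 0 h. The lines overlapped then, and at 8 h they stood apart with 473 and 482 CPM in OCI-LY3 and 1126 and 1120 CPM in OCI-LY19. The difference of ICAM1 was 1.27 ± 0.09. CXCL8, a chemokine that attracts neutrophils, had 1.46 and 1.52 CPM at 0 h and 1.64 and 2.13 CPM at 8 h in OCI-LY3, against 4.34 and 4.13 CPM and then 44.4 and 43.0 CPM in OCI-LY19. Its difference was 3.02 ± 0.36, below only that of the noncoding RNA SCIRT among called genes averaging 5 CPM or more; SCIRT, at 3.28 ± 0.55, rests on 4 and 3 counts in OCI-LY19 at 0 h.

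CCL22, a chemokine for T cells that carry CCR4, moved in opposite directions. It had 359 and 362 CPM at 0 h and 240 and 235 CPM at 8 h in OCI-LY3, and 676 and 836 CPM at 0 h and 1196 and 1173 CPM at 8 h in OCI-LY19. The groups of the 2 lines did not overlap at either time, and the difference was 1.25 ± 0.10. TNFAIP2 differed by 2.27 ± 0.35 and SLAMF1, a lymphocyte surface receptor, by 1.33 ± 0.12. Members without a call included CFLAR at -0.19, BIRC2 at -0.01 and CD86 at 0.10.

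The subunits and inhibitors of NF-kB followed with smaller values. Of 19 tested members 10 had a positive difference and 0 a negative one, with a median of 0.45, and 0.22 with the trend removed. With spike-in totals none of the 19 was called and the median was 0.19. NFKBIA differed by 0.91 ± 0.10, NFKB1 by 0.78 ± 0.09, NFKB2 by 0.78 ± 0.09, RELB by 0.77 ± 0.11 and REL by 0.59 ± 0.12. NFKB1 had 171 and 179 CPM at 0 h and 481 and 505 CPM at 8 h in OCI-LY3, against 152 and 161 CPM and then 756 and 755 CPM in OCI-LY19. It rose in both lines, from slightly lower levels in OCI-LY19 to higher ones. RELA at 0.27 and TNFAIP3 at 0.03 were not called.

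The letters of the kB site, the decamer bound by NF-kB dimers, were present in 10 of 31 target-gene promoters (32.3%), in 5 of the 21 with a positive call (23.8%) and in 9.57% of all promoters in the table. It was also found in 5 of the 21 positive cholesterol genes with a promoter (23.8%), in 11.5% of the promoters of tested genes and in 13.3% of those of all genes with a positive call. The 5 positive genes with a match are shown because they let the site be read beside the values. Each line gives the match (capitals, with overlapping matches joined) with up to 20 bases on each side, 5′ to 3′ on the strand of the gene, RefSeq GRCh38.p14.
BIRC3 (chr11:102317329-102317378, + strand): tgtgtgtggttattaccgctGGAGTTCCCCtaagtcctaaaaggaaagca
CCL22 (chr16:57358578-57358627, + strand): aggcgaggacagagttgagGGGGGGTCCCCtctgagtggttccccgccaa
EBI3 (chr19:4229289-4229338, + strand): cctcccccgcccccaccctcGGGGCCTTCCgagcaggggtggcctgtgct
LTB (chr6:31582482-31582531, - strand): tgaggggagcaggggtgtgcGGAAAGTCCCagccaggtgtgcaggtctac
TNFRSF9 (chr1:7940883-7940932, - strand): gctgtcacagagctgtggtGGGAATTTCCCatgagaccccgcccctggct
BIRC3, an inhibitor of apoptosis, differed by 1.08 ± 0.14, and TNFRSF9, a costimulatory receptor, by 1.24 ± 0.15. EBI3, a cytokine subunit, differed by 0.67 ± 0.10, and LTB, which pairs with LTA in a membrane complex, by 1.09 ± 0.22. BIRC3 holds 2 separate matches, which began 199 and 135 bases before the gene start, and the second is shown. A match describes the letters of the window and not a bound site. BIRC3, EBI3, LTB and TNFRSF9 were named for their promoter match, outside the rule for named genes.

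**Figure D2:**
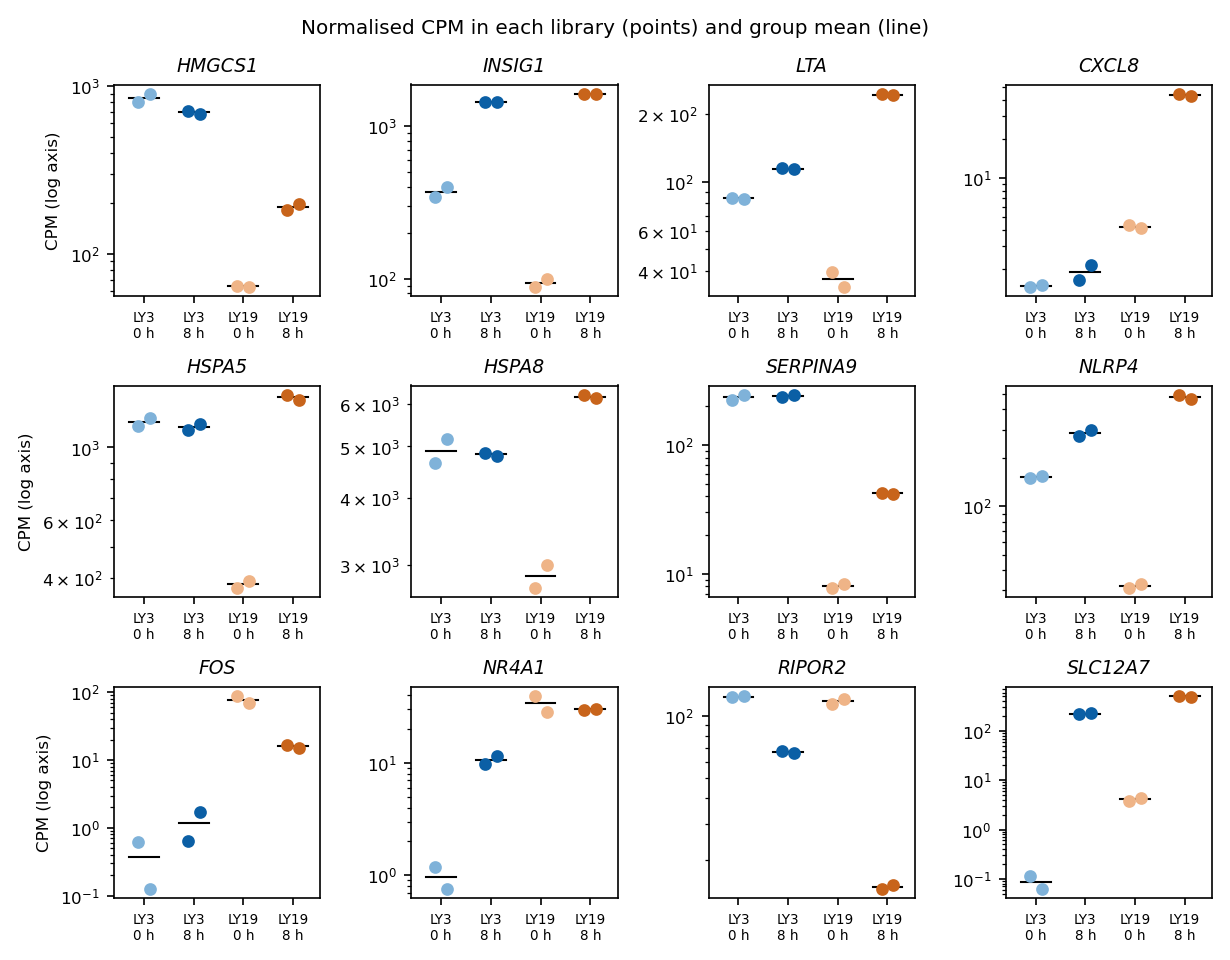
TMM-normalised CPM (log axes with separate ranges) of 12 genes in each of the 8 libraries, with 2 points per group and a line at the mean; LY3 and LY19 stand for OCI-LY3 and OCI-LY19. HMGCS1 falls in OCI-LY3 (848 to 697 CPM) and rises in OCI-LY19 (63.7 to 189 CPM), LTA and NLRP4 pass from lower to higher in OCI-LY19, and FOS falls in OCI-LY19 from 78.3 to 16.1 CPM.

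Chaperones of the endoplasmic reticulum and of the cytosol differed in the same direction. The unfolded protein response raises ER chaperones such as HSPA5 (BiP) through the factors ATF6 and XBP1 when secretory proteins misfold, and the heat shock response does the same in the cytosol through HSF1. Of 28 tested ER genes 18 had a positive difference and 1, EDEM1, a negative one that was lost in all single-library omissions but that of OCI-LY19 0 h replicate 2, with a median of 0.57. The median was 0.36 without TMM, 0.30 with spike-in totals and 0.46 with the trend removed. Of 21 genes of the cytosolic heat shock list, which also holds the mitochondrial chaperonin genes HSPD1 and HSPE1, 16 were positive and 0 negative. The list median was 0.76, and 0.56, 0.52 and 0.48 under the same alternatives. With spike-in totals 7 of the ER genes and 6 of the heat shock genes were positive.

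HSPA5 had 1164 and 1231 CPM at 0 h and 1130 and 1182 CPM at 8 h in OCI-LY3. OCI-LY19 had 375 and 393 CPM at 0 h and 1442 and 1395 CPM at 8 h. It was lower in both OCI-LY19 libraries than in any OCI-LY3 library at 0 h and higher at 8 h, with a difference of 1.94 ± 0.08 (adjusted p = 3.59e-18). CALR, a lectin chaperone of the ER, had a difference of 1.32 ± 0.08, and MANF, a secreted ER stress protein, 1.26 ± 0.10. SDF2L1, an HSPA5 cofactor, went down in OCI-LY3 from a mean of 63.3 to 44.9 CPM and up in OCI-LY19 from 15.3 to 35.5 CPM, with a difference of 1.70 ± 0.16. XBP1 differed by 1.02 ± 0.11. ATF6 at 0.21 and EIF2AK3, the PERK kinase, at 0.21 were not called.

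HSPA8, the constitutive HSP70, had 4649 and 5156 CPM at 0 h and 4860 and 4804 CPM at 8 h in OCI-LY3. In OCI-LY19 it had 2719 and 3001 CPM at 0 h and 6240 and 6158 CPM at 8 h, and the difference was 1.14 ± 0.09. HSP90AB1 differed by 1.17 ± 0.08, HSP90AA1 by 1.23 ± 0.10 and the mitochondrial chaperonin HSPD1 by 0.94 ± 0.09. The same reversal of order between the lines held for all 4. HSF1 itself was at 0.13 without a call. HSPA1A and HSPA1B share reads, and their values of 2.27 and 1.30 are uncertain.

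The ER stress element, written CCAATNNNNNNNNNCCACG and searched on both strands, was found in 6 of 25 ER list promoters (24%), in 5 of the 17 with a positive call (29.4%) and in 0.0806% of all promoters in the table. The heat shock element, written GAANNTTCNNGAA, was found in 3 of 19 heat shock promoters (15.8%), in 2 of 15 with a positive call (13.3%) and in 0.439% of all. The matches of the positive genes are printed in capitals, in the same layout as the kB sites, so that the letters can be read beside the values of the genes.
HSPA5 (chr9:125241371-125241429, - strand): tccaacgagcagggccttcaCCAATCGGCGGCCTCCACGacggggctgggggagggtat
XBP1 (chr22:28800583-28800641, - strand): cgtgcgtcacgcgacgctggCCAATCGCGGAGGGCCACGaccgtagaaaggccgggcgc
CANX (chr5:179698758-179698816, + strand): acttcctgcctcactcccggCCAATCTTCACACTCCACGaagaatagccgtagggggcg
CALR (chr19:12938364-12938422, + strand): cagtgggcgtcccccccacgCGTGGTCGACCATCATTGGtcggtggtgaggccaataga
CRELD2 (chr22:49918534-49918592, + strand): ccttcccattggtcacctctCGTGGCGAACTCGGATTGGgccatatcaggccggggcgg
HSPA8 (chr11:123062159-123062211, - strand): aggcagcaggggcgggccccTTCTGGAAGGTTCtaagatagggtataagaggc
DNAJB6 (chr7:157336853-157336905, + strand): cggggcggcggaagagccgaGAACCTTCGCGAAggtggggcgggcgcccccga
In CALR, CRELD2 and HSPA8 the match is on the other strand and appears here as its reverse complement. The match began 66 bases before the gene start in HSPA5, 52 in XBP1, 80 in CRELD2, 151 in CANX and 225 in CALR. HSPA8 holds 2 heat shock matches, and the one shown began 55 bases before the start. CANX, an ER lectin chaperone, differed by 0.40 ± 0.09, CRELD2, an ER stress protein, by 1.10 ± 0.16, and DNAJB6, an HSP40 cochaperone, by 0.61 ± 0.09; these 3 were named for their promoter match.

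**Figure D3:**
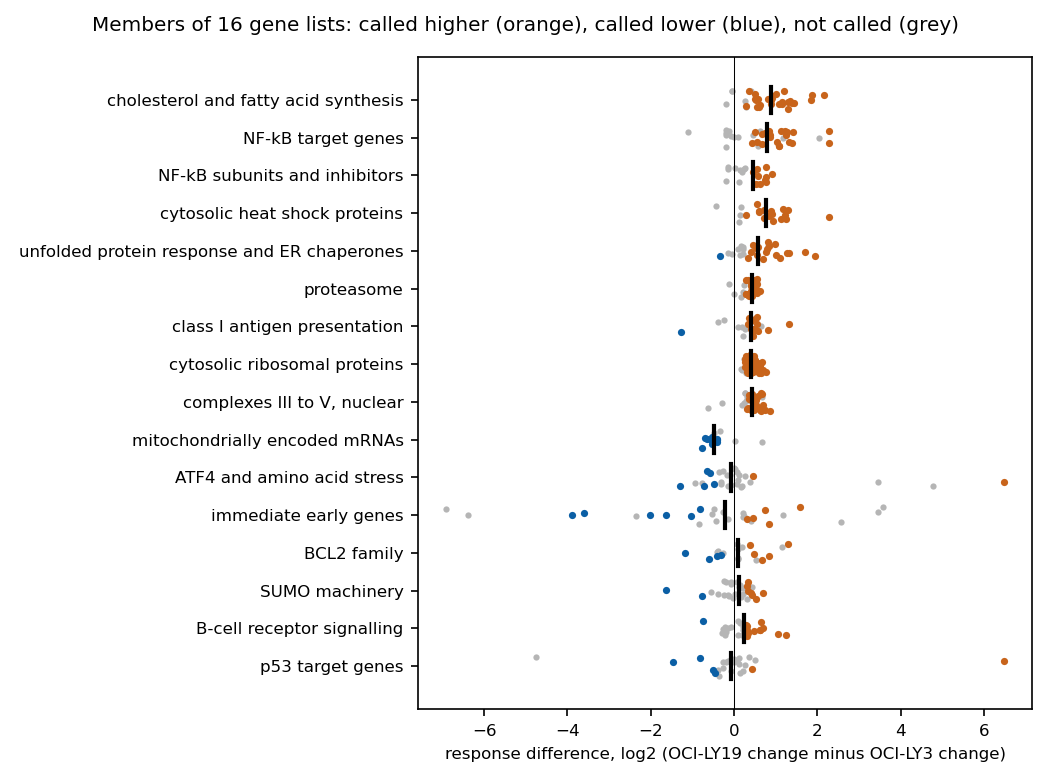
Response difference (log2) of every tested member of 16 gene lists, 1 point per gene with random vertical spread, and the list median as a black bar. The cholesterol, NF-kB target and heat shock medians are 0.88, 0.79 and 0.76, whereas 9 of 13 mitochondrially encoded mRNAs are called negative.

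Proteasome, ribosome and mitochondrial genes showed small positive differences in large numbers. The proteasome degrades ubiquitin-tagged proteins, and of 34 subunits and related genes 28 were positive and 0 negative, with a median of 0.43. PSMB4, a subunit of the core particle, had 211 and 220 CPM at 0 h and 201 and 216 CPM at 8 h in OCI-LY3, against 140 and 141 CPM and then 204 and 196 CPM in OCI-LY19. The lines were apart at 0 h and near each other at 8 h, with a difference of 0.55 ± 0.09. With the trend removed 13 were positive and 1 negative, and with spike-in totals none was called and the median was 0.17.

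Of 75 cytosolic ribosomal protein genes 66 were positive and 0 negative, with a median of 0.40. That result depended on the scaling: 27 were positive without TMM, none with spike-in totals, and 6 with the trend removed, where the median was 0.04. Several of these genes have near-identical processed copies in the genome, so their counts are uncertain. RPS21 differed by 0.77 ± 0.10 and RPL24 by 0.60 ± 0.09.

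Nuclear genes of the respiratory chain, which makes ATP by oxidative phosphorylation, were positive in 26 of 35 cases for complexes III to V and in 13 of 37 for complex I, with 0 negative in both. The medians were 0.43 and 0.30. COX7B, a subunit of complex IV, had 108 and 131 CPM at 0 h and 102 and 107 CPM at 8 h in OCI-LY3, and 79.9 and 78.5 CPM at 0 h and 125 and 127 CPM at 8 h in OCI-LY19, with a difference of 0.86 ± 0.11. ATP5MC3, a subunit of the ATP synthase ring, differed by 0.75 ± 0.10 and CYCS, cytochrome c, by 0.68 ± 0.11. Of 19 genes of the TCA cycle 12 were positive and 0 negative, with a median of 0.35. Mitochondrial ribosomal proteins were positive in 28 of 77 cases with a median of 0.29, but the count fell to 15 without OCI-LY3 8 h replicate 1, 16 without OCI-LY3 0 h replicate 2 and 18 without OCI-LY19 8 h replicate 2. With spike-in totals no member of the respiratory and TCA lists was called, and 13 of 35, 11 of 37 and 5 of 19 were positive with the trend removed.

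The mRNAs encoded by the mitochondrial genome itself went the other way. These 13 transcripts code for core subunits of the same complexes, and 9 had a negative difference and 0 a positive one, with a median of -0.48, -0.67 without TMM, -0.74 with spike-in totals and -0.93 with the trend removed. MT-CO1, a catalytic subunit of complex IV, had 9583 and 8561 CPM at 0 h and 11499 and 10276 CPM at 8 h in OCI-LY3. In OCI-LY19 it had 12273 and 19235 CPM at 0 h and 10811 and 11452 CPM at 8 h. The 2 OCI-LY19 libraries at 0 h were far apart, and the second was the highest of all 8. The difference of MT-CO1 was -0.76 ± 0.15 (adjusted p = 0.000282).

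As a share of gene counts, mitochondrial mRNA was 4.24% and 6.22% in OCI-LY19 at 0 h and 3.30% and 3.58% at 8 h, and 3.28% and 2.90% in OCI-LY3 at 0 h and 3.75% and 3.31% at 8 h. The share went down in OCI-LY19 and up in OCI-LY3, with a difference of -2.23 percentage points (exact permutation test of times within lines, two-sided p = 0.0556, the smallest the 36 arrangements allow). Without OCI-LY19 0 h replicate 2 it was -1.24 and without OCI-LY19 0 h replicate 1 it was -3.22. The number of negative mRNAs was 3 without OCI-LY19 0 h replicate 2, where the median was -0.14, 4 without OCI-LY3 0 h replicate 2, 5 without OCI-LY3 8 h replicate 1 and 6 without OCI-LY19 8 h replicate 1. DESeq2 called 3 of the 13. The replicates of OCI-LY19 at 0 h also differed most from each other over all genes, with a chi-square per degree of freedom of 12.1 against 2.80 to 3.88 in the other groups, and mitochondrial rRNA was 1.31% and 1.57% there against 0.67% to 0.884% in the other 6 libraries. The part of this in the result was not tested.

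**Figure D4:**
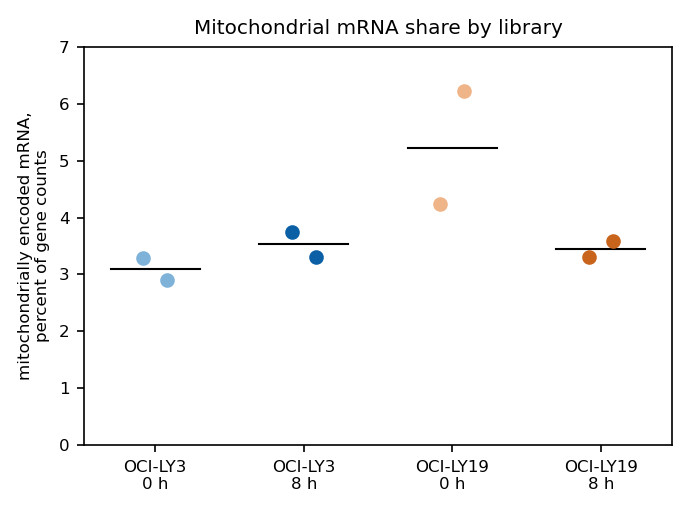
Mitochondrially encoded mRNA as percent of gene counts in each of the 8 libraries (points) and the group mean (line). OCI-LY19 at 0 h holds the highest library at 6.22% and the widest pair, and its 8 h libraries at 3.30% and 3.58% lie within the range of OCI-LY3.

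The strongest negative differences included immediate early genes, which code for transcription factors that growth and stress signals switch on within minutes. Of 28 tested, 6 were negative and 5 positive, and the median of -0.21 was 0.05 without OCI-LY3 8 h replicate 2. The 5 positive calls became 3 without OCI-LY3 0 h replicate 2, OCI-LY3 8 h replicate 1 or OCI-LY19 8 h replicate 1. FOS, a subunit of AP-1, had 1846 and 1345 counts in OCI-LY19 at 0 h and 390 and 338 at 8 h, or 88.1 and 68.6 and then 17.0 and 15.2 CPM. In OCI-LY3 it had 11 and 2 counts at 0 h and 13 and 35 at 8 h. OCI-LY19 fell from a high level while OCI-LY3 stayed below 2 CPM, and the fitted difference was -3.89 ± 0.53. NR4A1, an orphan nuclear receptor, had 39.4 and 28.6 CPM at 0 h and 29.8 and 30.1 CPM at 8 h in OCI-LY19, and 1.18 and 0.758 CPM at 0 h and 9.73 and 11.4 CPM at 8 h in OCI-LY3. Its groups overlapped across time in OCI-LY19 and not in OCI-LY3, and the difference was -3.61 ± 0.31. FOSB differed by -2.02 ± 0.37 and KLF6 by -1.02 ± 0.11. The positive members included DUSP2, a nuclear phosphatase, at 0.84 ± 0.12.

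SLC12A7, a potassium-chloride cotransporter, had the most negative difference of the called genes averaging 5 CPM or more, and it rose steeply in both lines. It had 2 and 1 counts in OCI-LY3 at 0 h, a sum of 3 with an exact Poisson 95% interval of 0.619 to 8.77 that covers counting error only, and 4386 and 4700 counts at 8 h. In OCI-LY19 it had 78 and 87 counts at 0 h and 11679 and 10948 at 8 h. The level was higher in OCI-LY19 at both times, and the fitted difference of -4.27 ± 0.43 depends on the 3 counts of 1 group.

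Other genes with large negative differences fell in both lines and further in OCI-LY19. RIPOR2 was at 123 and 124 CPM in OCI-LY3 and 115 and 121 CPM in OCI-LY19 at 0 h. At 8 h it was at 67.8 and 66.0 CPM in OCI-LY3 and 14.6 and 15.3 CPM in OCI-LY19, a difference of -2.09 ± 0.11. RASSF6, a member of the RAS-association family, began near the same level in both lines and differed by -1.63 ± 0.13. RUBCNL, an autophagy regulator, differed by -1.62 ± 0.10, EVI2B by -1.68 ± 0.27 and GPR18, a G-protein-coupled receptor, by -1.70 ± 0.30. CREBRF, a regulator of CREB3 factors, rose more in OCI-LY3 and differed by -1.68 ± 0.20.

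Genes that moved in opposite directions were most marked for a small set. Up in OCI-LY19 and down in OCI-LY3 were HIVEP3, a zinc finger protein, at 2.19 ± 0.22, FAM222A at 2.00 ± 0.29, MGLL, the lipase that cleaves monoacylglycerol, at 1.76 ± 0.12, and HELZ2, a nuclear receptor coactivator, at 1.74 ± 0.27. MGLL had 142 and 150 CPM at 0 h and 78.5 and 78.8 CPM at 8 h in OCI-LY3, and 146 and 135 CPM at 0 h and 266 and 249 CPM at 8 h in OCI-LY19. The lines overlapped at 0 h and parted in both directions. Down in OCI-LY19 and up in OCI-LY3 were MYADM at -2.16 ± 0.19, PABIR3 at -1.84 ± 0.29, BBS10 at -1.33 ± 0.23, EPM2AIP1 at -1.28 ± 0.11 and TMCC2 at -1.26 ± 0.26. EPM2AIP1 had 66.4 and 59.7 CPM at 0 h and 103 and 98.3 CPM at 8 h in OCI-LY3, and 67.9 and 66.1 CPM at 0 h and 40.6 and 47.1 CPM at 8 h in OCI-LY19.

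NLRP4, an NLR family protein, had the smallest p among genes with a symbol. It had 149 and 155 CPM at 0 h and 274 and 299 CPM at 8 h in OCI-LY3, and 31.2 and 32.7 CPM at 0 h and 491 and 463 CPM at 8 h in OCI-LY19. It rose in both lines and the order of the lines turned over, with a difference of 2.99 ± 0.12 (adjusted p = 1.06e-18).

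B-cell identity genes gave a mixed picture. The germinal-centre serpin SERPINA9 stayed level in OCI-LY3, at 225 and 244 CPM and then 236 and 244 CPM, and rose in OCI-LY19 from 7.82 and 8.41 CPM to 42.5 and 42.1 CPM. The lines stayed far apart, and the difference was 2.35 ± 0.13. BCL6, the repressor that maintains the germinal-centre state, fell in both lines and less in OCI-LY19, with means of 199 and 39.7 CPM in OCI-LY3 and 103 and 35.1 CPM in OCI-LY19 and a difference of 0.77 ± 0.12. P2RY8, a receptor that confines B cells to the germinal centre, fell further in OCI-LY19 and differed by -0.96 ± 0.10. Of 22 germinal-centre genes 4 were positive and 6 negative, and the median of 0.10 turned to -0.10 without TMM, -0.02 without OCI-LY3 0 h replicate 1 and -0.02 without OCI-LY19 8 h replicate 1. The 6 negative calls became 2 without OCI-LY3 0 h replicate 2 or OCI-LY3 8 h replicate 1, and 3 without OCI-LY3 0 h replicate 1, OCI-LY19 8 h replicate 1 or OCI-LY19 8 h replicate 2.

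Among 24 B-cell transcription factors 8 were positive and 1 negative (4 with the trend removed), and the median of 0.05 was -0.15 without TMM and -0.17 with spike-in totals. SPIB, an ETS factor of B cells, had 167 and 179 CPM at 0 h and 145 and 153 CPM at 8 h in OCI-LY3, and 137 and 136 CPM at 0 h and 279 and 277 CPM at 8 h in OCI-LY19. Its difference was 1.24 ± 0.10. IRF8, an interferon regulatory factor that acts in the germinal centre, differed by 1.17 ± 0.09. PAX5, the B-cell commitment factor, differed by 0.36 ± 0.09. IRF4 at 0.48 ± 0.19 (adjusted p = 0.0965) and PRDM1, the plasma cell factor, at -0.54 ± 0.29 were not called. IRF4 was called with the trend removed (0.60, adjusted p = 0.0379), without OCI-LY19 0 h replicate 1 (0.66, adjusted p = 0.0428) and without OCI-LY19 8 h replicate 1 (0.64, adjusted p = 0.0246). Of 30 genes of B-cell receptor signalling 12 were positive and 1 negative, led by SPIB, VPREB3 at 1.06 ± 0.14, the inhibitory receptor CD22 at 0.70 ± 0.10 and the kinase LYN at 0.63 ± 0.10. The median of 0.25 was -0.01 with spike-in totals, where 2 were positive, and 8 were positive with the trend removed.

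Class I molecules show peptides made by the proteasome, and of 21 tested genes 13 were positive and 1, the trimming peptidase ERAP2 at -1.27 ± 0.20, negative. The median was 0.41, and 0.15 with spike-in totals, where 1 was positive; with the trend removed 8 were positive and 1 negative. Class II genes had 5 positive and 2 negative members of 16, and their median of 0.14 turned to -0.06 without TMM and -0.11 with spike-in totals. The 5 positive calls became 2 without OCI-LY3 0 h replicate 2, either OCI-LY3 library at 8 h or OCI-LY19 8 h replicate 1, 3 without OCI-LY3 0 h replicate 1, OCI-LY19 0 h replicate 2 or OCI-LY19 8 h replicate 2, and 2 with the trend removed. CD74, the invariant chain, differed by 0.51 ± 0.10 and its regulator CIITA by 0.40 ± 0.11. HLA genes are polymorphic and alike, and their counts are uncertain.

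The BCL2 family, which sets the threshold for mitochondrial apoptosis, split by member. Of 19 tested genes 5 were positive and 4 negative, and the median of 0.10 was -0.11 without TMM. The anti-apoptotic BCL2L1 (BCL-XL) had 78.7 and 85.2 CPM at 0 h and 234 and 246 CPM at 8 h in OCI-LY3, and 70.3 and 57.2 CPM at 0 h and 338 and 333 CPM at 8 h in OCI-LY19, with a difference of 0.84 ± 0.11. BCL2A1, also anti-apoptotic, differed by 0.66 ± 0.13. The pro-apoptotic BIK had a positive difference of 1.29 ± 0.16 and the pro-apoptotic HRK a negative one of -1.18 ± 0.23. BCL2 itself rose in both lines with a difference of 0.11 ± 0.10 that was not called. The number of negative members was 1 without OCI-LY19 8 h replicate 2, and 2 without OCI-LY3 0 h replicate 2, OCI-LY19 0 h replicate 1 or either OCI-LY3 library at 8 h.

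The target of the drug and its pathway showed small differences. Of 30 genes of the SUMO machinery 7 were positive and 2 negative, and the median of 0.13 was -0.08 without TMM, -0.14 with spike-in totals and 0.00 with the trend removed, where 3 were positive. The 2 negative calls became 0 without OCI-LY3 0 h replicate 1 and 1 without either OCI-LY3 library at 8 h, OCI-LY19 0 h replicate 2 or either OCI-LY19 library at 8 h. SUMO2 had 203 and 206 CPM at 0 h and 268 and 258 CPM at 8 h in OCI-LY3, and 110 and 98.1 CPM at 0 h and 214 and 221 CPM at 8 h in OCI-LY19, with a difference of 0.70 ± 0.09. RNF4, the ubiquitin ligase that recognises SUMO chains, differed by 0.52 ± 0.09. SUMO3 differed by 0.34 ± 0.10, a call lost without OCI-LY19 8 h replicate 1 (adjusted p = 0.0975). SAE1 at 0.21 ± 0.09, UBA2 at 0.14 ± 0.09, SENP5 at 0.31 ± 0.11 and PIAS1 at -0.25 ± 0.11 were not called. PIAS1 was called without TMM (-0.45, edgeR adjusted p = 0.00344) and with a stricter filter on low counts (-0.29, edgeR adjusted p = 0.0452).

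Of 29 tested amino acid stress genes under ATF4, 5 were negative (17.2%) and 2 positive (6.9%). The median of -0.06 lay between -0.09 and 0.04 with single libraries left out, but scaling moved it further. Without TMM it was -0.27, with 11 negative and 1 positive. It was -0.31 with spike-in totals, with 5 negative and 0 positive, and -0.20 with the trend removed, with 8 negative and 2 positive. The 2 positive calls became 0 without OCI-LY3 8 h replicate 2 and 1 without either OCI-LY3 library at 0 h, OCI-LY3 8 h replicate 1 or OCI-LY19 8 h replicate 1. CHAC1, which breaks down glutathione, had 4.04 and 3.60 CPM at 0 h and 18.2 and 19.4 CPM at 8 h in OCI-LY3, and 7.78 and 5.86 CPM at 0 h and 13.7 and 13.6 CPM at 8 h in OCI-LY19. Its rise was larger in OCI-LY3, and the difference was -1.30 ± 0.26. SLC38A2, an amino acid transporter, differed by -0.64 ± 0.11 and SLC7A11, the cystine transporter, by -0.59 ± 0.13. ATF4 itself was at 0.02 ± 0.09 without a call, and with the trend removed it was at -0.32 with a call.

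**Figure D5:**
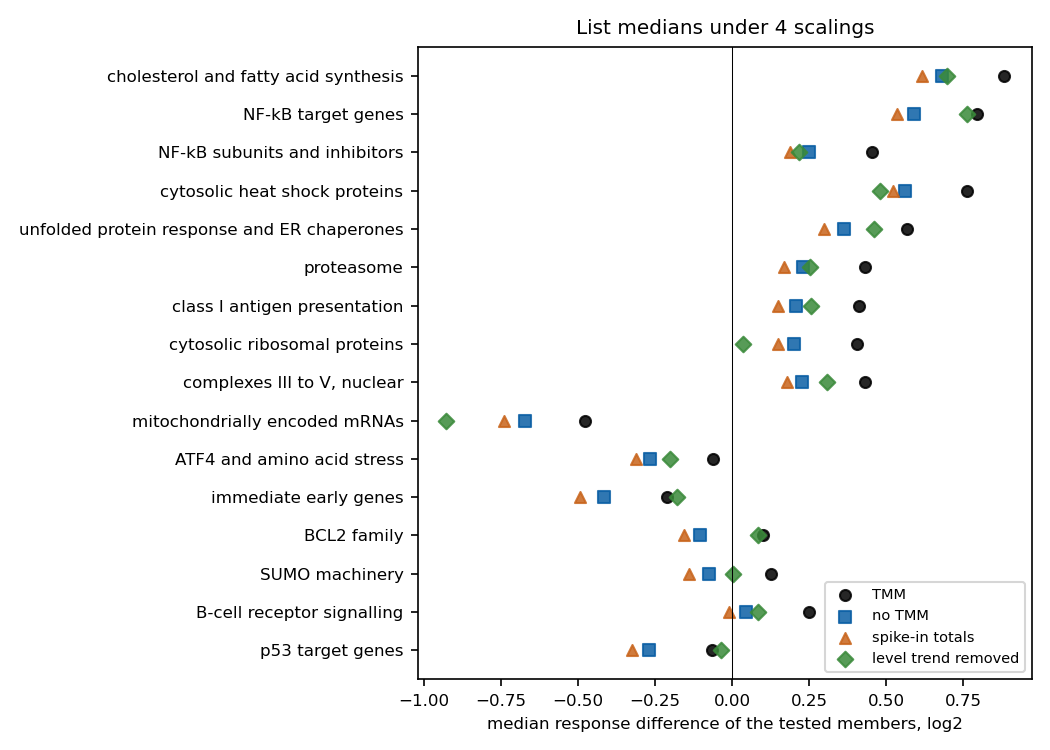
Median response difference (log2) of the tested members of 16 lists under TMM scaling, total counts without TMM, spike-in totals and TMM with the trend by expression level removed. The lowest medians of cholesterol synthesis, NF-kB targets, heat shock proteins and ER chaperones among the 4 are 0.61, 0.53, 0.48 and 0.30, the ribosomal protein median ranges from 0.40 to 0.04, and the SUMO machinery and BCL2 family medians change sign.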

How the data were processed

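The members are the 8 RNA libraries of OCI-LY19 and OCI-LY3; groups come from the sample titles. The contrast, gene lists and tests were chosen with earlier results of these data known. The authors deposited 1 table of raw gene counts that also lists spike-in RNAs, which stayed out of library sizes; per the labels' protocols, the RNA was enriched for poly(A) and PCR duplicates were removed. Trimmomatic, HOMER, MACS2, Bowtie2, DESeq2 and bedtools are listed per the submitters' processing notes, as are hg19 and GRCh38, without roles or versions. The program that made the counts: not given in the sources used here. ATAC-seq data (8 samples) were not analysed.

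Of 58676 gene IDs, 58207 were found in the gene name table. The 16 libraries in 8 groups entered 1 model; filterByExpr left 17327 genes. After TMM scaling, edgeR 4.0.16 under R 4.3.3 with limma 3.58.1 gave quasi-likelihood tests on a design of 1 coefficient for each group (8 residual df); the other 8 libraries share only the spread. The standard error is the absolute log2 difference divided by the square root of F. P-values were adjusted by Benjamini and Hochberg at 0.05. CPM values are TMM-normalised. The low counts of SLC12A7 are given with an exact Poisson 95% interval, and other low counts without one. Genes are named by rule: the 12 highest and 12 lowest differences among called genes at 5 CPM or more, the 8 smallest p-values in each direction, the 4 tested genes of lowest p in every list, a fixed set, and 6 genes of opposite direction each way; genes with no symbol, clones, antisense transcripts and pseudogenes were not named, and some genes are not reported here. Promoters are from RefSeq (GRCh38.p14). The model was tested on simulated data with known differences, where the share of false calls lay above the nominal level, so calls near the threshold are less certain than their adjusted p. Alternatives tried were RLE scaling, total counts without TMM, spike-in totals, DESeq2 1.42.0, 2 other filters, the 8 libraries alone, a replicate block, a 1.5-fold minimum and leaving out each library; removal of the trend with expression level was added after seeing the data. Figures were drawn with matplotlib.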

Additional observations from a re-analysis of the deposited data

Results flagged for a closer look

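The contrast is itself a test of whether 2 lines differ in the same change, so each gene it calls is a difference between groups: 2676 genes passed. Those with opposite directions in the 2 lines stand out most, since each line's own change was also called. Up in OCI-LY19 and down in OCI-LY3 were HIVEP3 with a log2 difference of 2.19, FAM222A with 2.00, HMGCS1 with 1.85, MGLL with 1.76, HELZ2 with 1.74 and SDF2L1 with 1.70. Down in OCI-LY19 and up in OCI-LY3 were FOS with -3.89, MYADM with -2.16, PABIR3 with -1.84, BBS10 with -1.33, EPM2AIP1 with -1.28 and TMCC2 with -1.26. The rise of FOS in OCI-LY3 rests on few reads, 11 and 2 counts at 0 h and 13 and 35 at 8 h. No group has 4 or more samples, so single libraries could not be screened as outliers.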

How the results depend on the processing

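The count of 2676 was 883 with spike-in totals (150 positive, 733 negative) and 149 when a difference of at least 1.5-fold was required (107 positive, 42 negative). It was 3164 without TMM, 2101 with the expression trend removed (1765 of them among the 2676, with 69 of the 2676 at the opposite sign), 2566 by DESeq2, and 1803 to 2478 with each library left out, lowest without OCI-LY19 8 h replicate 1. The cause of the lower counts was not tested, apart from the 1.5-fold test, which asks for more. The count between lines of 6820 at 0 h was 14545 with spike-in totals and 1564 at 1.5-fold, and that of 6117 at 8 h was 14819 and 1251; spike-in shares differ several-fold between the lines. The mitochondrial share difference of -2.23 percentage points ranged from -3.22 to -1.24 with single libraries left out. With the trend removed CD79A was at -0.063 (adjusted p = 0.744) in place of 0.28, and ATF4 at -0.32 (adjusted p = 0.019) in place of 0.02. Libraries with the same replicate number shared little deviation between times, with a correlation of 0.0075 for OCI-LY3 and -0.044 for OCI-LY19. These values cannot show whether libraries with the same number came from the same culture. The replicate block gave 2537 calls (1588 positive, 949 negative) with no change among the 180 named genes. Of those 180, 83 lost a call with spike-in totals, 19 without TMM and 26 with the trend removed. C3 lost its call without either OCI-LY3 library at 0 h. With the last 100 bases in place of 250, 16% of ER list promoters held the ER stress element, 10.5% of heat shock promoters the heat shock element, 19.4% of NF-kB target promoters a kB site and 0% of cholesterol promoters the sterol element. Of 5456 genes with a mean below 1 CPM, 73 were called, and the part of depth in this was not tested.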

Other observations

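Of 37 DNA replication genes 20 had a positive response difference and 3 a negative one, with a median of 0.28; MCM7, a subunit of the replicative helicase, was at 0.66 ± 0.08 and RRM2, a subunit of ribonucleotide reductase, at 0.69 ± 0.10. The count of 20 was 10 without OCI-LY19 8 h replicate 1, 12 without OCI-LY19 8 h replicate 2, 13 without OCI-LY19 0 h replicate 1, 11 without OCI-LY3 0 h replicate 2 or OCI-LY3 8 h replicate 1, and 9 with the expression trend removed. Of 32 G2 and mitosis genes 3 were positive and 5 negative, with a median of -0.05 that was 0.02, with 1 negative call, without OCI-LY19 0 h replicate 2, and 9 were negative with the trend removed; BUB1, a checkpoint kinase, was at -0.65 ± 0.12 and CCNB1 at 0.48 ± 0.11. CDKN1B (p27), an inhibitor of G1 kinases, rose in OCI-LY3 from 16.6 and 13.8 CPM to 26.8 and 25.8 CPM and not in OCI-LY19, at 33.3 and 29.0 CPM and then 29.4 and 27.7 CPM, with a difference of -0.91 ± 0.16.

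Of 24 antioxidant genes 6 were positive and 1 negative, with ferritin heavy chain FTH1 at 1.14 ± 0.12 from 926 and 929 CPM to 758 and 650 CPM in OCI-LY3 and from 890 and 766 CPM to 1346 and 1429 CPM in OCI-LY19. Type I interferon genes gave 3 positive (7.5%) and 3 negative (7.5%) of 40, against 9.71% and 5.74% of all tested genes. ISG15 was at 1.01 ± 0.19 and STAT2 at -0.80 ± 0.15. Among 25 p53 targets 2 were positive (8%) and 4 negative (16%), with TP53INP1 at -1.46 ± 0.36. MYC was at -0.11 ± 0.11 and not called, but was called at -0.31 (adjusted p = 0.0441) without TMM and at -0.34 (adjusted p = 0.0374) with the trend removed. Of 5 tested genes of the stromal, epithelial and endothelial list COL1A1, at 0.72 ± 0.14, and VIM, at 1.04 ± 0.13, were positive. Whether VIM marks such cells in these libraries was not tested. The other 3 were not called, and the values of the 5 reached down to -2.34. The median of the 5 was -1.40, but 0.22 without OCI-LY3 8 h replicate 1. It was 0 without OCI-LY19 0 h replicate 1 and 0.21 without OCI-LY19 0 h replicate 2. In the 8 libraries alone 3 members had a value, with a median of 0.69. With the stricter filter 2 had a value, with a median of 0.84. KRT18 was at 0. The whole list, VIM included, summed to 127 to 154 CPM at 0 h and 278 to 281 CPM at 8 h in OCI-LY19, and 134 to 153 CPM and 164 to 174 CPM in OCI-LY3. The part of other cell types in this was not tested. Of 29 genes of the MYC network and ribosome biogenesis 15 were positive and 2 negative, of 27 glycolysis genes 9 and 2, of 30 mitochondrial import and stress genes 13 and 0, of 20 activated B-cell and plasma cell genes 6 and 1, of 20 aminoacyl-tRNA synthetases 4 and 2, of 16 chemokines and receptors 3 and 3, and of 16 G1 regulators 3 and 2. Several of these balances turned with the processing. With the trend removed 2 MYC network genes were positive and 4 negative, 0 glycolysis genes positive and 5 negative, 0 synthetases positive and 8 negative, and 6 import genes positive. Without TMM 1 glycolysis gene was positive and 3 negative, and 0 synthetases positive and 6 negative. With spike-in totals none of the MYC network, glycolysis, synthetase or G1 genes was positive. With single libraries left out, positive glycolysis genes fell to 5 (without OCI-LY3 0 h replicate 2), MYC network genes to 10 (the same library), activated B-cell genes to 3 (without OCI-LY3 8 h replicate 2) and synthetases to 1 (without OCI-LY3 0 h replicate 2, OCI-LY3 8 h replicate 1 or OCI-LY19 8 h replicate 1).

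The smallest p of all belonged to an identifier with no symbol in the name tables, ENSG00000112096, singled out after its values were seen. Without a symbol it could not enter any of the gene lists, so that no list count includes it. Whether it is a listed gene that was not found under its symbol, such as SOD2 among the NF-kB targets, was not checked. It was at 203 and 210 CPM at 0 h and 160 and 162 CPM at 8 h in OCI-LY3, and at 200 and 173 CPM at 0 h and 865 and 866 CPM at 8 h in OCI-LY19, with a difference of 2.58 ± 0.10.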
